A study of Drosophila melanogaster with 3 samples.

Results

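The regions described here are places in the *Drosophila melanogaster* genome listed as candidates for enrichment with a tagged CG12659 protein, in a list that includes background. Their summit lay inside an exon, away from any transcription start site (TSS). They were rows of the deposited list of regions called on all replicates together (the pooled list, dm6 build) whose summit was over 500 bp from every annotated TSS and fell in a 5' untranslated region (5' UTR), coding sequence (CDS), 3' untranslated region (3' UTR) or other exon, taken in that order. Of the 30000 rows of the pooled list, 1857 met the rule (6.19%), 10.1% of the 18376 rows over 500 bp from a TSS. They were 215 in 5' UTRs, 645 in CDS, 715 in 3' UTRs and 282 in other exons, and they lay in 1395 host genes.

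The experiment was ChIP-seq, in which DNA bound by a protein is recovered with an antibody and sequenced. Chromatin came from embryos 0 to 24 hours old, taken whole and with both sexes mixed, of a single transgenic line that stably made CG12659 with GFP at its C terminus, and it was precipitated with an antibody against GFP. All 3 samples were biological replicates of this 1 group, so there was no comparison between conditions. Whole embryos mix all cell types and many stages, and the labels do not state which promoter drove the fusion. RefSeq gives CG12659 no product beyond an uncharacterized protein.

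An exon is a stretch of a gene that stays in the mature RNA. In a protein-coding gene the CDS is translated, the 5' UTR precedes it and the 3' UTR follows it, while the other exons counted here belong to non-coding RNA genes and pseudogenes. Most fly transcription factors and chromatin proteins are mapped to promoters and to enhancers in introns or between genes. Exons away from a TSS are a setting in which a binding region shares its sequence with a transcript.

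The authors also deposited a set of 8952 regions kept for reproducibility between replicates, by the irreproducible discovery rate (IDR). Every region of this IDR set was found in the pooled list with the same coordinates and summit, and the set was the 8952 rows of highest signal there, down to a signal of 184.6. Signal and membership of the IDR set are therefore 1 measure. The signal is the authors' own value for each region, on a scale that differs between lists, and it served here only for ranking within a list. The lists hold no read counts, so the depth was unknown. The pooled list reaches far down and includes regions that the authors named background.

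The short sequences below come from exonic regions of high signal, but not always the highest, since the choice rested on a motif and on the chromosome arm. They leave out the highest region in 5' UTRs, in Raf, and the highest in CDS, in otp. For each exon class they are the 2 regions of highest signal that lay on the X, 2L, 3L, 3R or 4, belonged to the named regions and held 1 of 12 searched motifs within 50 bp of the summit. Each is 30 bases of the plus strand of the release 6 genome (dm6), 5′ to 3′, from RefSeq. Capitals mark the motif, which may be read on either strand. In dos, CG15247, Cals and stas it is the poly(A) signal, AATAAA. The InR motif is a CAG repeat, CAGCAGCAG. The motif of l(3)mbn is that of GATA factors, AGATAA. Both long non-coding RNA genes show the TATA box, TATAAA.
dos, 5' UTR, 3L:2590608-2590637: tttgctcagacaAATAAAttttactggatt
CG15247, 5' UTR, X:9876141-9876170: tttgtttgccttTTTATTtgcgattttttt
InR, CDS, 3R:21580242-21580271: tgcttgacagCTGCTGCTGttgctactgct
l(3)mbn, CDS, 3L:6124771-6124800: tcttgcttaaggAGATAAtttcctcttatc
Cals, 3' UTR, 4:1113330-1113359: aatatgctttgtTTTATTgttaaaaagttt
stas, 3' UTR, X:17625102-17625131: gagcattgtgggTTTATTtttttgtttgca
lncRNA:Vinr, other exon, X:12751302-12751331: gaaattttgaaaTATAAAttttgatatatg
lncRNA:CR46035, other exon, 3R:17704348-17704377: ttgataggatatTATAAAgaaccattacct
A match is a description of the letters and not evidence of a bound factor. The poly(A) signal letters were within 50 bp of 25% of all pooled summits, the TATA box letters of 16.5%, the GATA motif of 6.80% and the CAG repeat of 0.563%.

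Exonic regions were few among the reproducible regions, and the exon classes differed widely. Of the 1857 exonic regions 170 were in the IDR set, 9.15% (95% exact Clopper-Pearson interval 7.88 to 10.6). The share was 29.8% over all pooled rows and 17.6% over all rows away from a TSS, and it was 18.6% (3066 of 16519) over rows away from a TSS that were not exonic. Non-coding exons had 56 of 282 regions in the IDR set (19.9%, 15.4 to 25) and 5' UTRs 33 of 215 (15.3%, 10.8 to 20.9). The 3' UTRs had 62 of 715 (8.67%, 6.71 to 11.0), and CDS had 19 of 645 (2.95%, 1.78 to 4.56). The intervals cover counting error over regions only.

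Fisher's exact test (two-sided) was applied to every pair of the 7 classes, promoters, introns and intergenic sequence included, and p-values were adjusted by Benjamini-Hochberg over the 21 pairs. CDS was lower than each of the other classes: than promoters (49.2%, adjusted exact p = 5.55e-147), 5' UTRs (adjusted exact p = 2.75e-09), 3' UTRs (8.11e-06), other exons (4.18e-16), introns (19.6%, adjusted p = 5.23e-35) and intergenic sequence (16.2%, adjusted p = 1.61e-24). The 3' UTRs were lower than other exons (adjusted exact p = 3.38e-06), introns (1.34e-14), intergenic sequence (6.84e-08) and 5' UTRs (0.00880). That last difference missed the threshold of 0.05 when rows had to lie over 1000 bp from a TSS (adjusted exact p = 0.717) and when only the 4476 IDR rows of highest signal counted (0.0695). For 5' UTRs against introns (adjusted exact p = 0.162), intergenic sequence (0.879) and other exons (0.263), and for other exons against introns (0.879) and intergenic sequence (0.142), no difference was called. Some of these rested on the setting. Other exons were called above intergenic sequence in 5 alternatives, where the IDR set itself gave a difference of 3.70 points. Leaving out a replicate did not repeat the IDR step, so its values are of another measure than the IDR share. By that measure, without replicate 3, other exons were 7.84 points above intergenic sequence (adjusted exact p = 0.000944). They were 4.33 points above introns (adjusted exact p = 0.0837), beside 0.308 by the IDR set. For 5' UTRs minus other exons it gave -8.17 points (adjusted exact p = 0.0346). These p-values treat regions as independent, though some overlap, and say nothing of how much replicates vary.

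The choice of TSSs moved single classes. When only TSSs of protein-coding genes counted, other exons went from 282 regions to 582 and 5' UTRs from 215 to 220. When only the canonical TSS of each gene counted, 766 regions were in 5' UTRs and 27.2% of them were in the IDR set, above introns by 6 percentage points (adjusted exact p = 0.000161) and above intergenic sequence by 9.43 points (adjusted exact p = 3.69e-09). The 5' UTR class then takes in regions at alternative start sites.

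**Figure D1:**
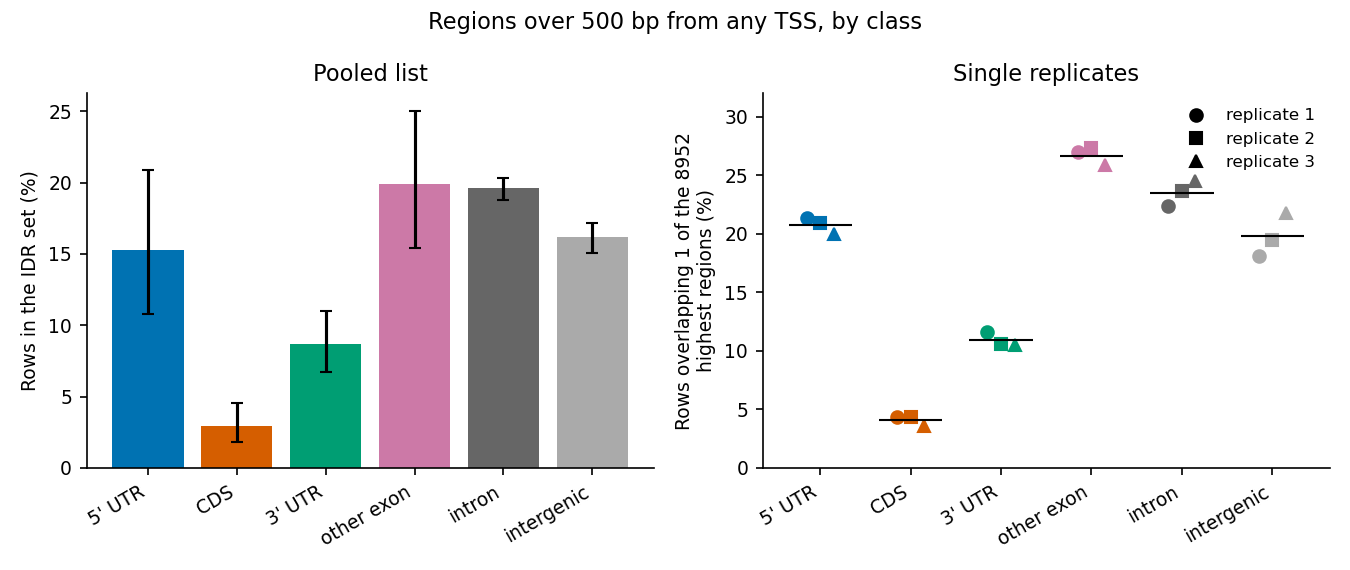
Left, the percent of pooled rows over 500 bp from any TSS that were in the IDR set, per class, with 95% exact intervals. Right, the percent that overlapped 1 of the 8952 highest regions of each replicate, with a line at the mean of 3. CDS is lowest in both, at 2.95% and 4.08%, and 3' UTRs are next.

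The single replicates gave the same order of the exon classes. A pooled row was counted for a replicate when it overlapped, by 50% of the shorter region, 1 of the 8952 highest regions of that replicate, which 36.5%, 36.1% and 36.0% of all pooled rows did in replicates 1, 2 and 3. Of the exonic regions 12.5%, 12.2% and 11.5% did, a mean of 12.1% ± 0.517 (SD, n = 3), against 22.4% ± 1.28 of the other rows away from a TSS. Other exons were at 27.0%, 27.3% and 25.9%, and 5' UTRs at 21.4%, 20.9% and 20.0%. The 3' UTRs were at 11.6%, 10.6% and 10.5%, and CDS at 4.34%, 4.34% and 3.57%. The values of the 4 exon classes did not overlap between classes. Each difference between 2 exon classes had the same direction in 3 of 3 replicates, with an exact two-sided sign-flip permutation p of 0.25, the smallest that 3 replicates allow. Other exons were above introns in each replicate, by 3.20 points on average (SD 1.63, n = 3, exact permutation p = 0.25), though the pooled test called no difference. The 5' UTRs were above intergenic sequence in 2 of 3 replicates. The replicates went into the pooled list, so they do not stand apart from it.

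The summits of each replicate's own list were then classified in the same way. Exonic summits away from a TSS made up 1.89%, 1.97% and 1.83% of the 8952 highest regions and 9.05%, 10.7% and 9.91% of the other regions of replicates 1, 2 and 3. The highest minus the other regions gave a mean difference of -7.98 points and the 2 ranges did not overlap, with an exact sign-flip permutation p of 0.25 (n = 3). For CDS alone the mean difference was -4.19 points, at 0.182% ± 0.0322 of the highest regions and 4.37% ± 0.851 of the others (SD, n = 3). The 3' UTRs were at 0.670% ± 0.0112 and 3.44% ± 0.306. Other exons differed less, at 0.640% ± 0.0359 and 1.08% ± 0.0366.

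Along the signal ranking of the pooled list, CDS and 3' UTRs filled up toward the bottom. Exonic regions were 42 of the 3000 rows of highest signal (1.40%) and 364 of the 3000 lowest (12.1%). CDS went from 3 rows to 167, and 3' UTRs from 15 to 130. Other exons went from 19 rows to 39, a smaller rise than in CDS or 3' UTRs. The 5' UTRs went from 5 to 28.

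**Figure D2:**
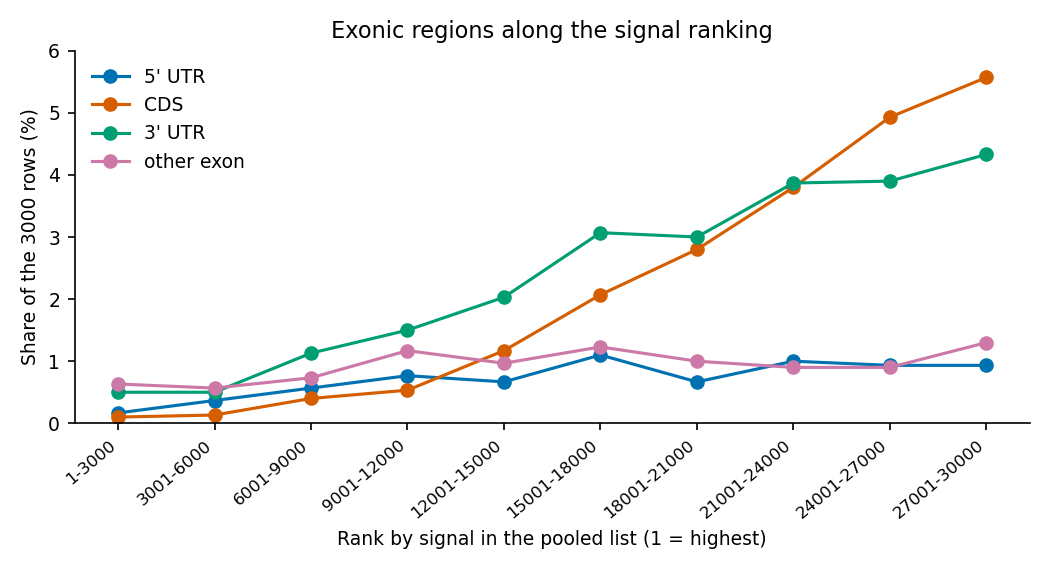
The percent of rows in each exon class, in steps of 3000 rows from highest to lowest signal in the pooled list. CDS rises from 0.1% to 5.57% and 3' UTRs from 0.5% to 4.33%, while other exons lie between 0.567% and 1.30%.

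The classes also differed in how densely listed regions lay per base. Exons away from any TSS covered 26.4 Mb, 22.8% of all such sequence on the 6 arms. CDS covered 18.4 Mb and held 35.0 pooled rows and 1.03 IDR rows per Mb. The 3' UTRs held 121 pooled and 10.5 IDR rows per Mb, and 5' UTRs 206 and 31.6. Other exons held 264 and 52.5 per Mb, beside 221 and 43.3 in introns and 132 and 21.4 in intergenic sequence. The median signal was 62.7 in CDS, 71.0 in 3' UTRs, 84.8 in 5' UTRs and 92.9 in other exons. It was 86.3 in introns, 82.7 in intergenic sequence and 102 over all pooled rows.

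Base composition moved with class. The median GC share of the 101 bp around the summit was 53.5% in CDS, 43.6% in 5' UTRs and 36.6% in both 3' UTRs and other exons, beside 37.6% in introns. In introns the IDR share itself fell with GC, from 26.2% where GC was below 40% to 9.39% at 40 to below 50% and 8.36% at 50% and over. These ranges were chosen after the data were seen. CDS was the lowest exon class in the first 2 ranges, with 0 of 54 regions below 40%, which allows up to 6.60% at the exact upper bound, and 7 of 180 (3.89%) at 40 to below 50%. At 50% and over, where 411 of the 645 CDS regions lay, 12 were in the IDR set (2.92%, 1.52 to 5.04), and other exons had 1 of 43 (2.33%, 0.0589 to 12.3).

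The 3' UTR deficit was seen where GC was low. Below 40% GC, 39 of 475 regions in 3' UTRs were in the IDR set (8.21%, 5.90 to 11.1), against 26.2% of introns and 21% of intergenic rows. At 40 to below 50% the 3' UTR share was 10.3% (6.33 to 15.7) and that of introns 9.39%, and at 50% and over they were 7.14% (1.98 to 17.3) and 8.36%. All exonic regions together were at 9.25% in that middle range, beside 9.49% of non-exonic rows away from a TSS. They were at 12.7% against 24.7% below 40% GC, and at 4.10% against 7.72% at 50% and over. The part of GC share in the class differences was not tested further.

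**Figure D3:**
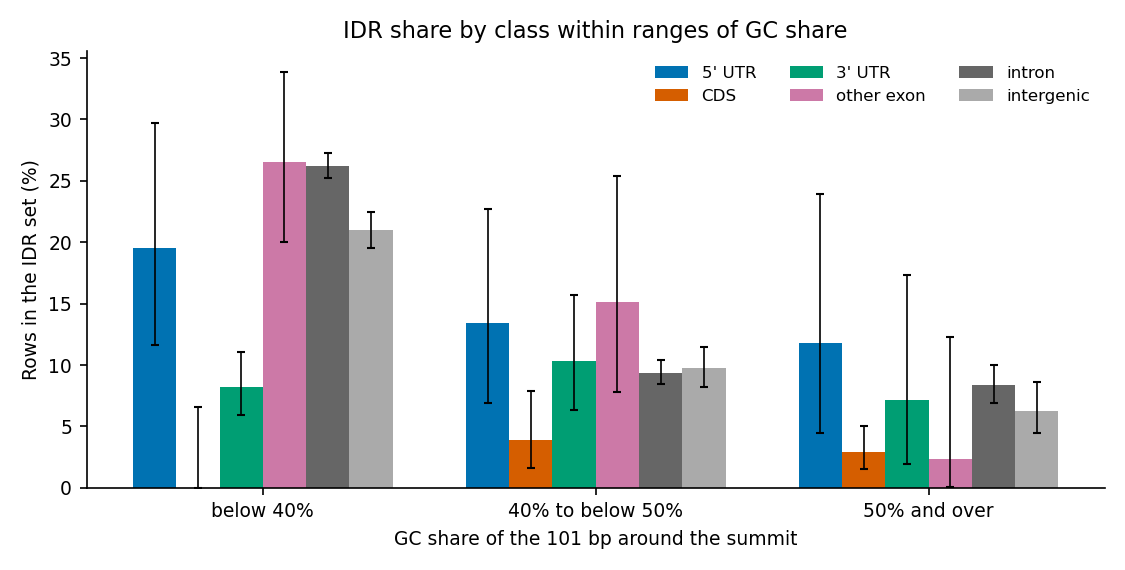
The percent of rows in the IDR set per class within 3 ranges of the GC share of the 101 bp around the summit, with 95% exact intervals. Introns fall from 26.2% to 8.36%, and CDS lies below introns in each range, at 0%, 3.89% and 2.92%.

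Distance from the TSS differed between classes too. The median distance was 974 bp in 5' UTRs, 1230 bp in CDS, 1148 bp in other exons and 2107 bp in 3' UTRs, beside 3258 bp in introns. In introns the IDR share fell with distance, from 28.0% at over 500 to 1000 bp to 15.7% beyond 5000 bp. CDS stayed low throughout, at 2.07%, 2.29%, 5.15% and 4% in the 4 distance ranges. The 5' UTR share was 20.2% (22 of 109) at over 500 to 1000 bp and 10.2% (6 of 59) at over 1000 to 2000 bp, with overlapping intervals. The 3' UTR share was highest at over 1000 to 2000 bp, at 13.0% (29 of 223). No other exon beyond 5000 bp was in the IDR set (0 of 23, upper bound 14.8%). At the limit of the rule, 22 of 117 exonic rows over 500 to 600 bp from a TSS were in the IDR set, with a median signal of 81.6, and 33 of 181 such rows over 400 to 500 bp away, just outside the rule, were, with a median of 75.5.

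**Figure D4:**
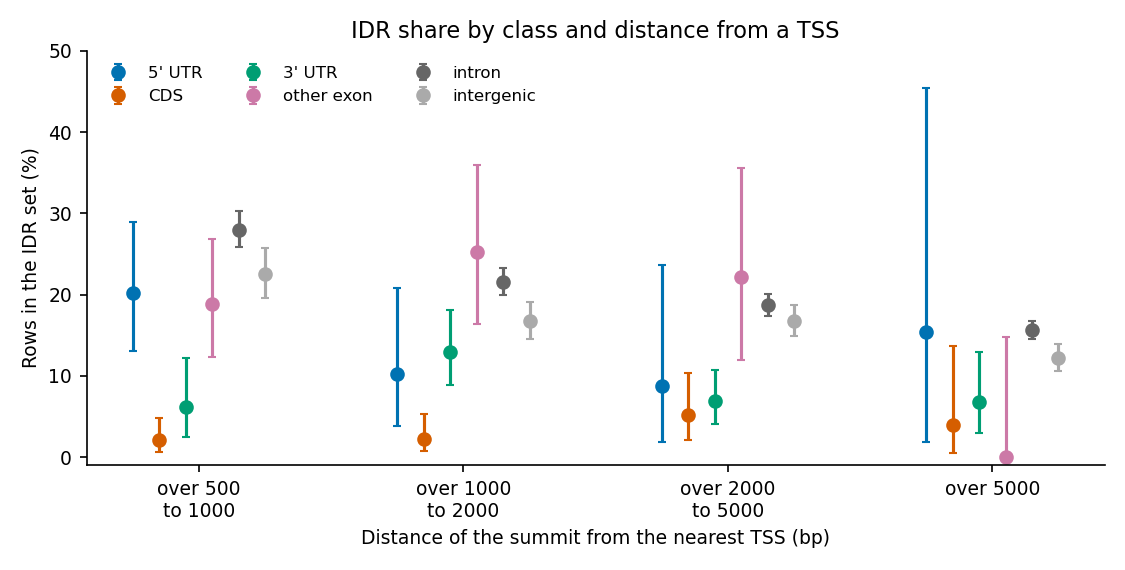
The percent of rows in the IDR set by distance of the summit from the nearest TSS, per class, with 95% exact intervals. CDS lies between 2.07% and 5.15% at every distance, and introns fall from 28.0% to 15.7%.

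Exonic regions of the IDR set were found again in the replicates far more often than the rest, which the IDR step itself selects for and which is therefore a description. Of the 170, 162 overlapped a region in the list of each of the 3 replicates, and 114 overlapped 1 of the highest regions of each. Of the other 1687 exonic regions, 403 were in all 3 lists and 29 among the highest of all 3. Some 55 of the 170 were narrower than the usual width of 490 bp, and none of the other 1687 was. Over the whole pooled list, 3465 of the 8952 IDR rows and 158 of the 21048 other rows were narrower, so narrow rows are a trait of the IDR set at large. Another IDR summit lay within 300 bp of 30 of the 170 (17.6%), a distance chosen after the data were seen, against 13.9% of all IDR rows away from a TSS.

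In 5' UTRs the highest region was in Raf, which encodes a kinase of the Ras-MAP kinase pathway (X:2296092-2296559). It lay in an exon of 200 bp, with the summit 21 bp from the exon's edge, and 42.7% of the region was exonic. Its signal was 1250, rank 355 of the pooled list, and the matched regions ranked 392, 271 and 443 in replicates 1, 2 and 3. A region in dos, an adaptor in receptor tyrosine kinase signalling whose sequence is shown above, had a signal of 700 and replicate ranks 2223, 925 and 1693. Mef2, the muscle transcription factor gene, had a region of signal 657, and ush, which encodes a GATA cofactor, 1 of 469. The remaining regions among the 8 highest were in Fbl6 (signal 978), cic, a repressor gene regulated by receptor tyrosine kinase signals (437), CG15247 (429) and CAP (424). Each of these 8 was among the highest regions of all 3 replicates.

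Exon length and coverage differed between 5' UTR regions in and outside the IDR set. The exon had a median length of 1484 bp in the 33 IDR regions and 950 bp in the 182 others, and the median region was wholly exonic in the IDR set and 82.8% exonic otherwise. The exon was the first of its transcript in 19 of the 33 (57.6%) and in 82 of the 182 others (45.1%). Of the 29 host genes, 23 (79.3%, 60.3 to 92.0) also had an IDR region at a TSS, as had 102 of 148 (68.9%, 60.8 to 76.3) hosts of the other 5' UTR regions and 42.3% of all protein-coding genes. The 2 intervals overlap.

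In coding sequence the 19 regions of the IDR set were spread over 19 genes. The highest lay in the last exon of otp, a homeobox transcription factor gene of the nervous system, 4650 bp from the nearest TSS, that of Cib2 (2R:20884416-20884744). Its signal was 1206, rank 387, with replicate ranks 362, 367 and 457, and the next IDR summit was 52041 bp away. The second lay in the last exon of Pde1c, which encodes a calcium/calmodulin-dependent phosphodiesterase (2L:11816416-11816721), with a signal of 971 and replicate ranks 666, 496 and 852. These regions were 329 and 306 bp wide, all or nearly all exonic (100% and 95.1%), and GC-rich at the summit (60.4% and 68.3%). Neither gene had an IDR region at a TSS.

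The next CDS regions were weaker. They lay in CG10357 (signal 581), klar, which encodes a KASH protein of nuclear positioning (444), InR, the insulin receptor gene (311), l(3)mbn (304) and CG10962 (289). The InR region, whose CAG repeat is shown above, had ranks 3815 and 5327 in replicates 1 and 2 and no matched region in replicate 3. HisRS (266), the histidyl-tRNA synthetase gene, scrib (251), a cell polarity gene, nahoda (250) and CG31259 (244) followed. The other 8 had signals of 233 down to 189, near the lower end of the set. They were Socs36E, a JAK/STAT inhibitor gene, TpnC73F, a troponin C gene, bif, raskol, Ubr1, a ubiquitin ligase gene, btsz, CG42588 and ppk8, a sodium channel family gene.

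Not all of these regions were equally well based on coding sequence or on each replicate. Of the 19, 10 were among the highest regions of all 3 replicates, and InR, Ubr1 and CG42588 had no matched region in replicate 3. A median of 67.8% of an IDR region was exonic, against 87.0% for the 626 other CDS regions, and 5 of the 19 were wholly exonic. The bif and Socs36E summits lay 199 and 201 bp from stronger intronic summits, of signal 519 and 473. Since a replicate's value is that of the strongest region overlapping by 50%, their high replicate ranks (2174, 3121 and 2492 for bif) can be those of the neighbour. The 19 regions had a median GC share of 56.4% and the others 53.0%.

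**Figure D5:**
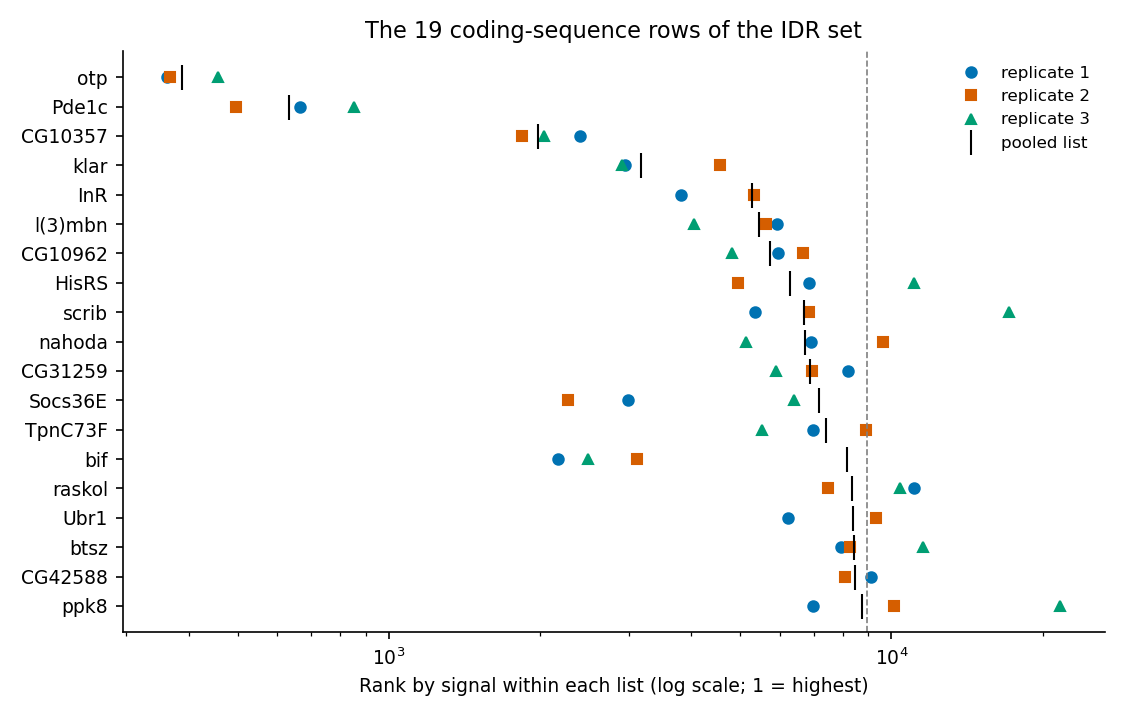
The rank by signal of the 19 CDS regions of the IDR set, in the pooled list (bars) and of the matched region in each replicate (points), on a log scale, with a dashed line at rank 8952. The regions in otp and Pde1c stand apart at ranks of 852 or better in each list, and the others lie between ranks 1841 and 21667.

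In 3' UTRs the strongest region lay in Cals, the calsyntenin gene, on the small chromosome 4 (4:1112925-1113508). Its signal was 1055, rank 526, with replicate ranks 522, 453 and 679, and its summit was 9625 bp from the nearest TSS. It was the only IDR region among the 50 exonic regions of chromosome 4 (2.00%), beside 9.15% over all exonic regions. Of those 50, 27 were in CDS, where the share over all arms was 2.95%. The regions in stas (X:17624866-17625261) and CG7872 (X:15579645-15579940) both had a signal of 874, and those in CG33307 and lwr, which encodes the SUMO-conjugating enzyme, 786 and 762. CG5984 (742), by, the tensin gene (600), and CG5895 (597) completed the 8 highest, each among the highest regions of all 3 replicates.

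The IDR regions of 3' UTRs were set in shorter genes than the rest. The host gene had a median length of 4561 bp for the 62 IDR regions and 9294 bp for the 653 others. The nearest TSS was that of the host in 51.6% of IDR regions and 30.8% of the others. The summit lay a median of 568 and 669 bp from the gene's end, and 34 of 55 hosts (61.8%) had an IDR region at a TSS, as had 328 of 498 other hosts (65.9%). Of the 62 regions 22 were on the X, which held 206 of the 715 regions in 3' UTRs.

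Other exons held the 2 exonic regions of highest signal. The region in lncRNA:Vinr (X:12750796-12751692), shown above, was the fifth of the pooled list, with a signal of 4946 and replicate ranks 6, 5 and 5. Its summit lay 516 bp upstream of the TSS of lncRNA:CR44619, close to the limit of the rule. The region in lncRNA:CR46035 (3R:17704213-17704628) had a signal of 2325, rank 72, and replicate ranks 66, 82 and 72. An exon of lncRNA:CR44619 itself carried a region of signal 1135, and lncRNA:CR44365 1 of 983. The others of the 8 highest were in lncRNA:CR43334 (815), lncRNA:CR44628 (718), lncRNA:CR42719 (646) and lncRNA:CR44331 (629), and all 8 were among the highest regions of each replicate.

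Other exons were almost all those of long and antisense non-coding RNA genes. Of the 282 regions 278 were in genes annotated as ncRNA, with 56 in the IDR set, and 4 in pseudogenes, with none. No exonic region away from a TSS had a rRNA, snRNA, snoRNA or tRNA gene as host. A gene of 500 bp or less cannot hold a summit over 500 bp from its own TSS. The rule itself shuts such genes out, so their absence says nothing of binding there. The body of a protein-coding gene also covered 76 of the 282. Of the 45 host genes of IDR regions, 13 (28.9%, 16.4 to 44.3) had an IDR region at a TSS of their own. So had 21 of 139 (15.1%, 9.60 to 22.2) hosts of the other regions, and the intervals overlap. No share over all non-coding RNA genes was set beside these. The median GC share was 33.2% in the IDR regions and 38.6% in the others.

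Some genes carried many exonic regions. Most hosts, 1105 of them, had 1 region, and 27 regions had more than 1 host gene. The single exon of lncRNA:CR43334 held 15, with signals from 50.4 to 815 and 5 in the IDR set, and lncRNA:CR43650 held 10, with 1. The 3' UTR of ps, which encodes the splicing regulator Pasilla, held 9 with 1 in the IDR set at a signal of 200. Tm1, a tropomyosin gene, had 8 regions with signals from 49.6 to 85.0, with none in the IDR set. Each of 3 genes had 7, again with none in the IDR set: corto, a chromatin protein gene (signals of 63.1 to 170), lncRNA:CR46006 (69.0 to 147) and mei-P26 (52.1 to 174). The IDR share was 9.15% over all exonic regions, 2.95% in CDS, 8.67% in 3' UTRs and 19.9% in other exons. Beside these shares, none or 1 among so few regions does not set a gene apart. Neighbouring rows can overlap, as 600 of the 1857 exonic regions did with some other pooled row, so they are not separate sites.

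The gene families looked at differed in how many exonic regions they held. Over all protein-coding genes, 1211 of 13945 were hosts. Muscle genes had 22 regions in 10 of 26 genes, with 4 in the IDR set: Mef2, 2 in 5' UTRs of CAP (signals 424 and 274) and TpnC73F (226). Neuron and synapse genes had 24 in 15 of 39 genes, 19 of them in 3' UTRs, with 2 in the IDR set, in Syx1A (208) and Nrx-1 (191). Cytosolic ribosomal protein genes had 7 in 7 of 92 genes, all in 3' UTRs, with RpS26 (265) in the IDR set. Among 6 regions in 6 of 179 chemoreceptor genes, led by Gr77a (71.6), none was in the IDR set. The same held for 5 in 4 of 15 actin and tubulin genes, led by Act5C (75). It held for 2 in 2 of 8 Hox genes (lab at 87.3 and Antp at 68.9). So it did for 2 in 2 of 121 cuticle protein genes, led by Cpr35B (53.1). Kr (53.0), Cp36 (49.4) and mRpL20 (54.9) had 1 each, also outside the set. Their lists held 20 segmentation, 17 yolk and chorion and 73 mitochondrial ribosomal protein genes. The Kr and Cp36 regions had no matched region in any replicate, and that of mRpL20 had 1 in replicate 1 only. None of 24 heat shock genes held an exonic region. Of 118 genes matched by the pattern for histone genes, the only host was HisRS, which is not a histone gene. The IDR share over all exonic regions, 9.15%, is the value beside which these small counts stand. The families also differed in exon class, and the share ran from 2.95% in CDS to 19.9% in other exons. All 6 chemoreceptor regions, for one, were in CDS. Neither exon class nor the lengths of the genes, which differ, were taken into account.

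The shares of summits with a motif differed between classes. GAGAG, the GAGA factor motif, was within 50 bp of 12.6% of exonic summits and 11.4% of all pooled summits. TATCGATA (DRE), a motif of housekeeping promoters, was at 5 of 1857 exonic summits (0.269%), beside 0.265% in introns and 0.373% in intergenic sequence, and at 3.50% of promoter summits. GGTCACAC (M1BP), another such motif, was at 2 exonic summits (0.108%), beside 0.248% in introns, 0.207% in intergenic sequence and 3.18% at promoters. Both were rare at other summits away from a TSS too. In the AT-poor CDS, TATAAA was at 3.10% and AATAAA at 6.51% of summits. The CAG repeat was at 2.95% of CDS summits. AATAAA was at 24.5% of 3' UTR summits, beside 25% over all rows. Among exonic IDR regions AATAAA was at 26.5% and among other exonic regions at 17.0%, beside 28.3% and 23.5% over all pooled rows. The median GC share of the exonic IDR regions was lower (37.6% against 43.6%). The 2 groups also differed in class, since CDS made up 19 of the 170 IDR regions and 626 of the 1687 others. Within classes the AATAAA shares were 24.2% and 22.0% in 5' UTRs and 10.5% and 6.39% in CDS. They were 29.0% and 24.0% in 3' UTRs and 30.4% and 22.1% in other exons, with overlapping intervals in each class.

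By chromosome arm, the X held 393 of the exonic regions (21.2%) and 45 of the 170 in the IDR set (26.5%), beside 18.9% of all pooled rows. Chromosome 4 stood out for how many of its pooled rows were exonic, 50 of 326 (15.3%), while the other arms had 5.29% to 6.94%. The IDR share of exonic regions was 7.67% on 2L, 8.47% on 2R, 8.29% on 3L, 10.2% on 3R and 11.5% on the X.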

How the data were processed

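The authors deposited region lists, with a signal value per region, for each of the 3 replicates and for the replicates together, and the IDR set. Per the file notes, calling used 1 control alignment, not analysed here. The IDR threshold, and which aligner and caller were run, were not given in the sources used here. Labels call the replicates biological and do not say whether embryos were collected separately for each, so p-values over replicates may measure technical spread. The dm3 lists were not used.

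Summits of the dm6 lists were classified with the Ensembl release 115 annotation (BDGP 6.54) without transposable elements, and sequences came from the RefSeq release 6 genome. A row was in the IDR set when chromosome, start, end and summit matched. The antibody was taken as anti-GFP from the description, although another label gives CG12659. The members and lists were chosen with earlier results of these data known. Shares were compared by Fisher's exact test, called at an adjusted p below 0.05, and over replicates by sign-flip permutation. The tests were tried on simulated data.

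Named regions were all CDS rows of the IDR set, the 8 highest IDR rows of each other exon class, the 5 hosts with most rows (7 with the 3 tied for the fifth place) and the highest row of each of 12 gene lists. Other listed members with a count of 5 or fewer were named after their values were seen. Alternatives were other TSS distances and TSS sets, class orders, overlaps, list depths and reproducible sets, each replicate left out in turn, and, chosen after seeing the data, ranges of GC share. Software was scipy 1.17.1, numpy 2.4.6, pandas 2.3.3 and matplotlib 3.10.9, under Python 3.11.15. No sequence from chromosome arm 2R is printed.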

Additional observations from a re-analysis of the deposited data

How the results depend on the processing

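Of 168 alternative values of the differences between classes, 151 kept their direction and their side of the threshold, and so did every comparison of CDS with another exon class, introns or intergenic sequence in these alternatives. When rows had to lie over 200 bp from a TSS, 5' UTRs were 0.388 points above introns (adjusted exact p = 0.801). They were then 0.628 points above intergenic sequence (0.753). With the canonical TSS they were 4.72 points above other exons (adjusted exact p = 0.131), 6 above introns and 9.43 above intergenic sequence. They were above intergenic sequence by 0.0812 points with CDS taken before UTRs and by 1.40 with 50% of a region's bases in exons. At 1000 bp, 5' UTRs were above 3' UTRs by 1.23 points and 10.2 below other exons (a difference of -10.2, adjusted exact p = 0.0383), and with the 4476 strongest IDR rows 2.78 above 3' UTRs. Other exons exceeded intergenic sequence at an adjusted exact p of 0.0390 with TSSs of protein-coding genes only (3.67 points), 0.0444 with canonical TSSs (4.71) and 0.0369 with the 4476 strongest (3.36). Leaving out 1 replicate did not repeat the IDR step, so its values are of another measure. It gave differences from -1.36 to 0.190 for 5' UTRs minus intergenic sequence. For 5' UTRs minus other exons it gave -8.17 to -4.40 (called without replicate 3, adjusted exact p = 0.0346). For other exons minus intergenic sequence it gave 4.59 to 7.84 (called without replicates 2 and 3, adjusted exact p = 0.0423 and 0.000944).

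Shares in the IDR set were 3.34% (exonic), 5.58% (5' UTR), 0.620% (CDS), 2.80% (3' UTR) and 9.22% (other exon) with the 4476 strongest IDR rows, which holds fewer regions. Over 200 bp from any TSS, 2850 regions were exonic (12.9% in the IDR set), 614 in 5' UTRs (21.7%) and 465 in other exons. At 1000 bp, 106 were in 5' UTRs (10.4%), 404 in CDS and 160 in other exons. With TSSs of protein-coding genes only, 10.7% of exonic regions were in the IDR set and 582 regions were in other exons. With canonical TSSs the exonic share was 14.6%, and 27.2% of 766 regions in 5' UTRs were in the set. By GC range, the exonic share was 12.7% below 40% and 4.10% at 50% and over, other exons were at 26.5%, 15.1% and 2.33% from low to high GC, and CDS was at 0% below 40%.

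Mean shares overlapping the highest regions of the replicates are given for exonic regions, 5' UTR, CDS, 3' UTR and other exon in turn. For rows over 200 bp from any TSS they were 20.9%, 35.7%, 9.52%, 16.9% and 31.0%. They were 12.9%, 21.9%, 4.65%, 11.7% and 27.8% with an overlap of 1 bp, and 8.94%, 15.8%, 2.84%, 8.02% and 20.0% with 80%. With the 4476 highest regions they were 4.95%, 7.91%, 1.5%, 3.96% and 13.1%, and with every region 63.9%, 74.6%, 55.1%, 63.7% and 76.0%. At 1000 bp, 5' UTRs were at 18.9%, 3' UTRs at 11.5% and other exons at 28.5%. By own summits, the highest minus the other regions gave -5.52 (exonic), -0.359 (5' UTR), -2.74 (CDS), -2.25 (3' UTR) and -0.177 points (other exon) at 1000 bp, -9.64 (exonic), -0.879 (5' UTR) and -5.32 (CDS) at 200 bp, and -7.12 (exonic) with the 4476 highest. Hosts of IDR rows had an IDR region at a TSS in 40.7% and 68.3% of cases at 200 and 1000 bp, and other hosts in 45.4% and 64.6%, or 50.2% with canonical TSSs. The cause of these shifts was not tested. No paired analysis was possible because there was 1 group. No read counts were available to set an interval on a region's signal, and the IDR step was not repeated when a replicate was left out.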
